A study of Mus musculus with 72 samples.

Results

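Epididymal white adipose tissue (eWAT) of male mice born to calorie-restricted dams was compared between a 45% fat diet and a 10% fat diet, with 6 mice on each. The 12 libraries are those of the series whose labels name this tissue, the restricted dams (CR20) and either diet, out of 72 libraries. They were picked as 1 comparison of a larger study that also covers offspring of freely fed dams (FED) and other tissues. The dams were of a sighted FVB strain and received 20% less food than a paired dam from embryonic day 15 until weaning on postnatal day 21. Their sons started the diets at 8 weeks of age and ate them for 10 weeks. The litter of each mouse is not given, so mice of the same litter cannot be told from mice of separate litters. Total counts ranged from 11589675 to 21401722 (median 19871177.5) on the 10% fat diet and from 12855046 to 21046778 (median 18922674) on the 45% fat diet.

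eWAT is a visceral fat depot that lies along the epididymis and stores triglyceride in large adipocytes. Adipocytes take up fatty acids that lipoprotein lipase frees from circulating lipoproteins, make some of their own from glucose and acetate, and release them again by lipolysis. Around the adipocytes lie blood vessels, stromal progenitors, resident macrophages and lymphocytes, and a sheet of mesothelium covers the depot.

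Adipocyte genes were abundant in each of the 12 libraries, which fits the tissue named in the labels. The 22 genes of an adipocyte list, among which the carbonic anhydrase gene Car3 is the most abundant, summed to 38559.7, 79698.3 and 108009.4 CPM (lowest, median and highest) on the 10% fat diet and to 82816.9, 86436.9 and 91860.8 CPM on the 45% fat diet. Mouse 5 was the lowest and mouse 48 the highest on the 10% fat diet, and the mice on the 45% fat diet all lay between these 2. In bulk samples, fewer cells of a type and less RNA per cell cannot be told apart. Of the 22 genes 17 had a value above 0 and 5 below it, none at an unadjusted p under 0.05 by edgeR, beside 6.03% of all tested genes. Their median log2FC was 0.11 against -0.02 over all tested genes, and it was -0.03 without mouse 5.

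The library of mouse 5, on the 10% fat diet, stood apart from the others of its group. Its median distance from the group median was 0.379 log2 CPM, against 0.139 to 0.169 in the other 5 mice of the group and 0.1 to 0.166 on the 45% fat diet. It had the lowest total count and the lowest adipocyte sum, and it was the highest of the 12 mice for 28.8% of all tested genes and the lowest for 23.1%. The 12 genes of an epithelial list summed to 255.5 CPM in mouse 5 against a median of 66.7 CPM in its group, and the 12 genes of a hepatocyte list, led by the albumin gene Alb, to 708.9 CPM against a median of 23.1 CPM. These 2 lists were chosen after the values had been seen. The most abundant gene of the epithelial list, the keratin gene Krt7, went the other way. It stood at 4.06 CPM in mouse 5 and at 9.33 to 73.8 CPM in the rest of its group. On the 45% fat diet the epithelial genes summed to 10.2, 39.8 and 52.3 CPM and the hepatocyte genes to 11.0, 15.9 and 23.8 CPM. Mouse 5 lay above every mouse of the 45% fat group in both lists, and the part of these genes in the results was not tested.

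The epididymis touches this depot, and few of its genes were found in most mice. The 27 epididymis and testis genes, led by the estrogen sulfotransferase gene Sult1e1, summed to 13.6, 44.8 and 203.2 CPM on the 10% fat diet and to 21.2, 50.3 and 121.6 CPM on the 45% fat diet. Mouse 4 was the highest of the first group and mouse 6 of the second, and the groups overlap. Adipose tissue also expresses Sult1e1, and without it the sums were 155.0 CPM in mouse 4, 82.8 CPM in mouse 5 and 39.8 CPM in mouse 6, and from 0.802 to 5.5 CPM in the other 9 mice. The sperm maturation gene Adam7 stood at 133.1 CPM in mouse 4, 51.9 CPM in mouse 5 and 4.31 CPM in mouse 6, and at 0 in the other 9 mice. The epididymal secretory gene Crisp1 was found in mouse 6 alone, at 22.1 CPM. Of the 27 genes 9 were at 0 in all 12 libraries, among them the lipocalins Lcn5, Lcn9 and Lcn10 and the glutathione peroxidase gene Gpx5. Their part in the results was not tested.

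**Figure D1:**
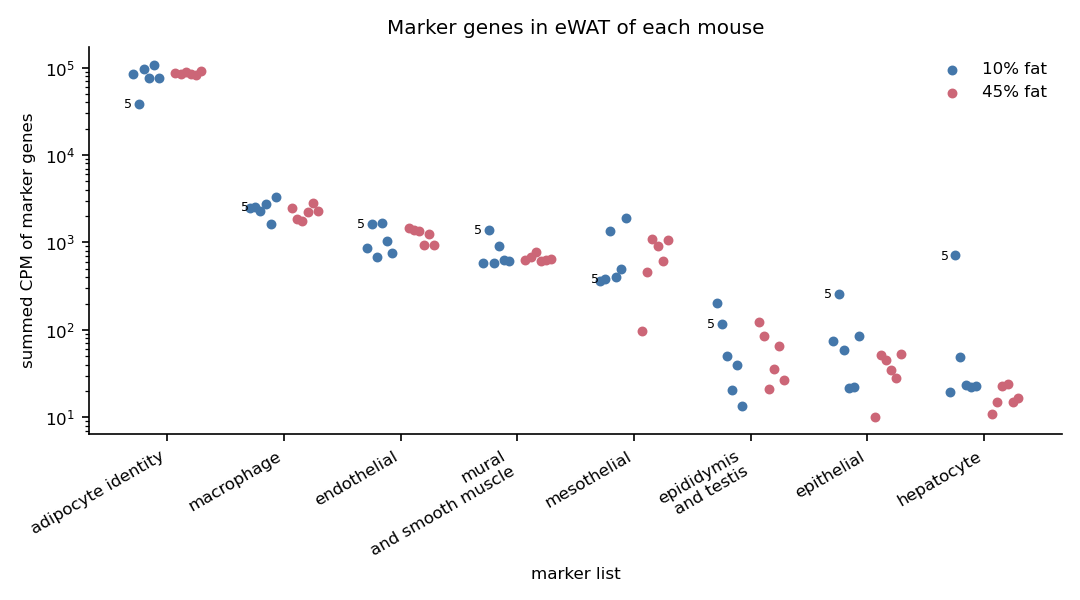
Summed CPM of marker genes in eWAT of each mouse, on a log axis, by diet. Mouse 5 of the 10% fat group is numbered.

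A diet rich in fat reaches adipose tissue as fatty acids ready for storage. It bears on the genes for making fat, on those for burning it, and on the cells that settle in a growing depot.

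By edgeR, 0 of 15964 tested genes (0%) passed an adjusted p of at most 0.055 with an absolute log2FC of at least 1. At an unadjusted p under 0.05 stood 962 genes (6.03%), 245 higher (1.53%) and 717 lower (4.49%) on the 45% fat diet. The other tools called 0 genes by limma voom with quality weights (637 at an unadjusted p under 0.05), 0 by limma voom (493) and 1 by DESeq2 (1423). DESeq2 tested 33313 genes, and limma the same 15964 as edgeR. The gene called by DESeq2 is Ighv5-9, a variable segment of the antibody heavy chain, with 147 counts in mouse 47, 12 in mouse 49 and 0 in the other 10 mice, and it was too sparse to be tested by edgeR. For 12886 genes (80.7%) the 95% interval of the log2FC lay within 1 of 0, and for 9218 (57.7%) within 0.58 of 0. The median interval reached 0.359 to each side of its estimate.

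At an unadjusted p under 0.05 with an absolute log2FC of at least 0.58, 83 genes (0.520%) were higher and 495 (3.10%) lower on the 45% fat diet. Mouse 5 had the highest value of the 12 mice for 424 of the 495 lower genes (85.7%). Without mouse 5 the counts were 97 higher and 109 lower, and 52 of the 83 (62.7%) and 77 of the 495 (15.6%) were among them. Without mice 4 and 5, a choice made after seeing the data, 182 genes were higher and 138 lower. Across the 12 fits that each left out 1 mouse, the lower count ran from 109 without mouse 5 to 745 without mouse 48, and the higher count from 64 without mouse 6 to 123 without mouse 48. In all 12 of these fits 144 of 15964 tested genes kept their direction and an unadjusted p under 0.05, 62 higher and 82 lower. They were taken from the 962 genes at such a p with all 12 mice. The fits share most of their mice, so this is no replication. With mouse 5 kept, the lower count also depended on the tool and the libraries fitted, with 76 higher and 126 lower by limma voom, 91 and 120 with quality weights, and 60 and 194 by edgeR on the 12 libraries alone. The lower count was larger by DESeq2, with 152 higher and 847 lower, and by edgeR with no filter, with 441 and 1535. Without mouse 5, 216 genes were higher and 263 lower at an unadjusted p under 0.05 with no minimum fold.

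**Figure D2:**
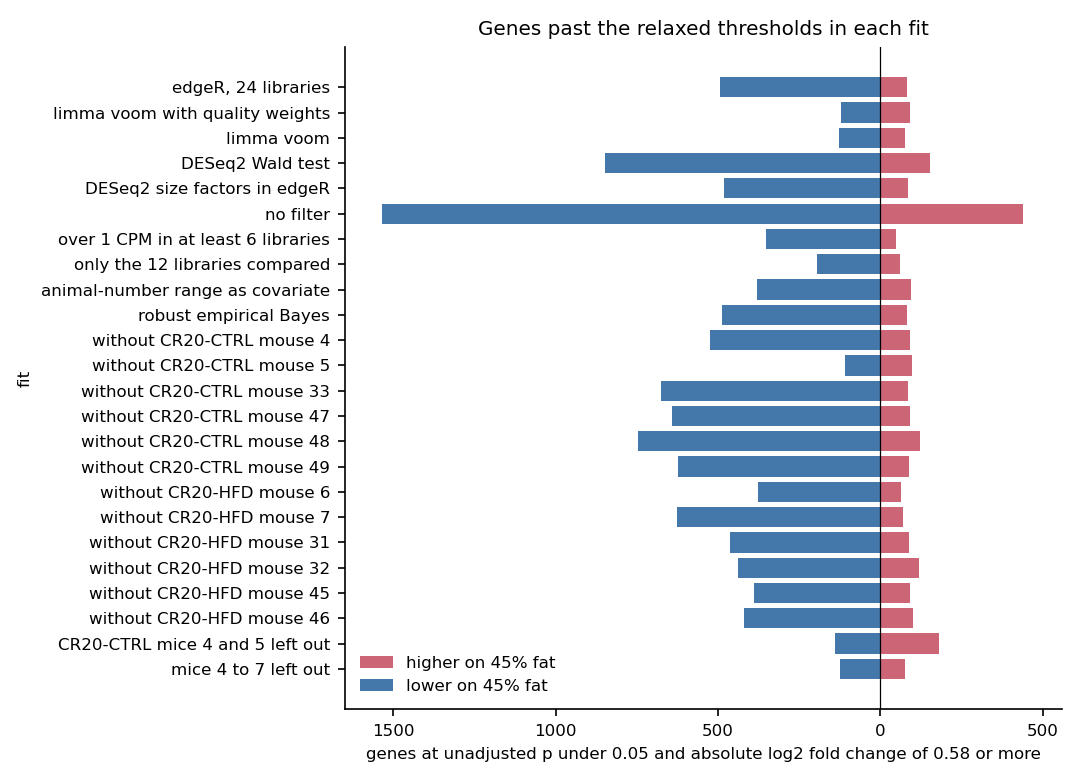
Number of genes at an unadjusted p under 0.05 with an absolute log2FC of at least 0.58 in each fit, higher to the right and lower to the left.

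Imprinted genes are read from the copy of 1 parent, and several act on fetal growth and on fat cells. Zim1 and Peg3 lie next to each other on chromosome 7 and both encode zinc finger proteins, Peg3 being read from the paternal copy and Zim1 from the maternal one. Zim1 had a log2FC of 1.47 (standard error 0.381, edgeR adjusted p 0.789). Its log2 CPM was 0.47, 1.96 and 2.55 on the 10% fat diet and 2.64, 3.08 and 4.10 on the 45% fat diet. Every mouse on the 45% fat diet lay above every mouse on the 10% fat diet, with mice 33 and 49 far below the other 4 of their group. Peg3 had a log2FC of 1.05 (standard error 0.322, edgeR adjusted p 0.789, exact permutation p 0.00866), with 0.90 to 1.38 when 1 mouse was left out. Mice 33 and 49 were again the lowest of the 10% fat group and mouse 48 the highest, and 3 of the 6 mice on the 45% fat diet lay above mouse 48. In offspring of FED dams the log2FC was 0.73 for Zim1 and 0.33 for Peg3, and the difference between the dam groups was 0.74 (edgeR adjusted p 0.464) and 0.72 (edgeR adjusted p 0.394). Within the ranges of animal numbers under 20, 20 to 39 and from 40 up, the difference was 1.35, 2.49 and 1.44 for Zim1 and 1.13, 1.89 and 0.93 for Peg3. The range from 20 to 39 held 1 mouse on the 10% fat diet, mouse 33. Of 33 tested imprinted genes, 2 were higher and 1 lower at an unadjusted p under 0.05, beside 1.53% higher and 4.49% lower over all tested genes, and their median log2FC was 0.01.

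Groups that did not overlap were seen for 18 genes (0.113%), 11 higher and 7 lower on the 45% fat diet. Beside Zim1 they include Acaa1b, a peroxisomal thiolase that ends each round of fatty acid shortening, Sfrp5, a secreted Wnt inhibitor of adipocytes, and Prkag2os2, a noncoding transcript that overlaps an AMP kinase subunit gene on the other strand. Acaa1b and Sfrp5 were chosen after their values had been seen. Any gene whose groups do not overlap has the smallest possible exact permutation p, 0.00216, so that p adds nothing for genes shown for this reason. Prkag2os2 had a log2FC of -1.05 (standard error 0.294, edgeR adjusted p 0.789). The genes with the smallest edgeR p were likewise picked for it, and their permutation p describes them and is no second test. The libraries were made with a stranded kit, but whether the counting used the strand is not stated. The counts are uncertain for 36 of 82 named genes that overlap a gene on the other strand, among them Acaa1b, Prkag2os2, Nr1d1, Hlf, Elovl6, Acss2, Me1, Cx3cr1, Foxp3, Ifi27l2a, Myb and Kif27.

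Cited2 encodes a nuclear protein that binds the coactivators p300 and CBP and restrains the response to low oxygen. Its log2FC was 0.74 (standard error 0.153, edgeR adjusted p 0.789, DESeq2 adjusted p 0.0434, exact permutation p 0.00649), from 0.63 to 0.82 when 1 mouse was left out. Log2 CPM was 4.09, 4.36 and 4.75 on the 10% fat diet and 4.63, 5.07 and 5.59 on the 45% fat diet. The mice on the 45% fat diet lay above all on the 10% fat diet except mouse 45, and mice 7 and 31 were the highest. In offspring of FED dams the log2FC was -0.15, and the difference between the 2 diet responses was 0.89 (edgeR adjusted p 0.0366). Such a difference had an adjusted p of at most 0.055 for 389 of 15964 genes (2.44%). Cited2 was picked for its small p in the CR20 mice, which favours a larger difference. Within the 3 ranges of animal numbers the difference between the diets was 0.67, 1.14 and 0.47. The second value rests on mouse 33 alone for the 10% fat diet.

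**Figure D3:**
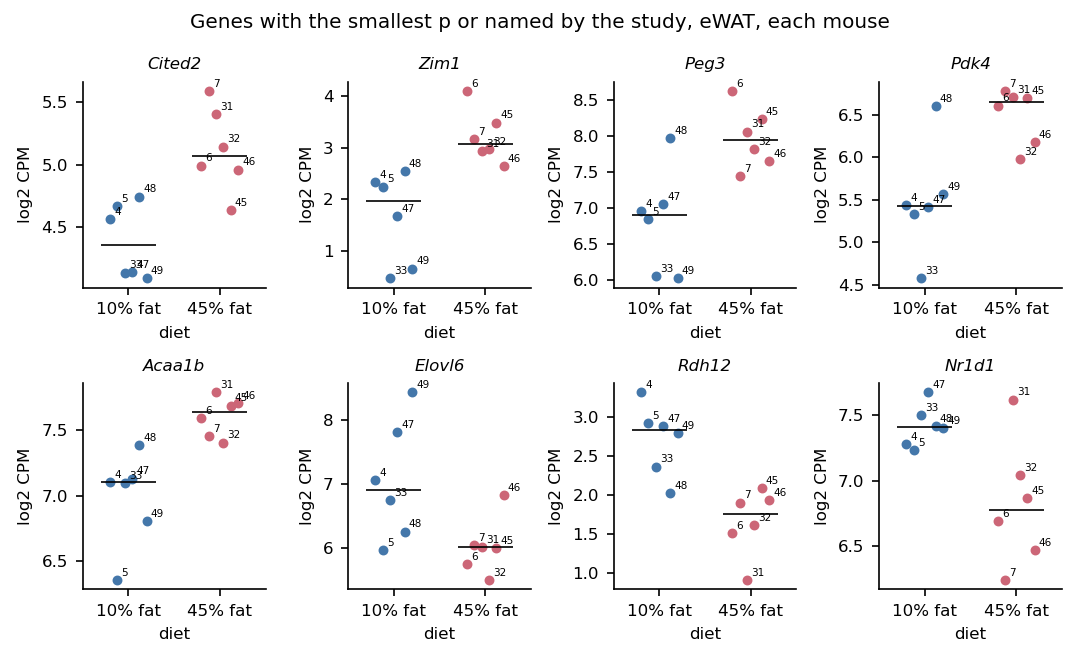
Log2 CPM in eWAT of each mouse by diet for 8 genes, with the animal number beside each point and the group median as a line.

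Fatty acids enter mitochondria as acylcarnitines and are shortened there, while long and branched chains start in peroxisomes. When fat is burned, pyruvate dehydrogenase is held back by the kinase that Pdk4 encodes. Pdk4 had a log2FC of 0.90 (standard error 0.249, edgeR adjusted p 0.789, exact permutation p 0.00866), with log2 CPM of 4.58, 5.42 and 6.60 on the 10% fat diet and 5.98, 6.65 and 6.78 on the 45% fat diet. Mouse 48 stood among the mice of the other diet, and the remaining 5 of the 10% fat group lay below all mice on the 45% fat diet. In offspring of FED dams Pdk4 stood 1.72 higher on the 45% fat diet (log2, edgeR adjusted p 0.00212), and the difference between the dam groups was -0.81 (edgeR adjusted p 0.226). Acaa1b had a log2FC of 0.60, the carnitine-acylcarnitine carrier Slc25a20 one of 0.32 (exact permutation p 0.0173) and the short-chain acyl-CoA dehydrogenase Acads one of 0.30 (exact permutation p 0.0195), or 0.19 without mouse 5. Of 23 tested fatty acid oxidation genes 17 had a value above 0, 3 were higher and 1 lower at an unadjusted p under 0.05 (all tested genes 1.53% and 4.49%), and the median was 0.14, or 0.07 without mouse 5.

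The genes of fatty acid synthesis turn citrate and acetate into palmitate and then lengthen and desaturate it. Of 23 tested genes 18 had a value below 0, 6 were lower and 0 higher at an unadjusted p under 0.05 by edgeR, where all tested genes had 4.49% lower and 1.53% higher, and the median log2FC was -0.22. The mean log2 CPM of the list was 9.06 on the 10% fat diet and 8.82 on the 45% fat diet, a difference smaller than the standard deviation between mice of 0.372. When 1 mouse was left out the median ran from -0.28 without mouse 4 to -0.15 without mouse 49, and it was -0.23 with 8 lower without mouse 5. Without mice 4 and 5 it was -0.37 with 9 lower. Elovl6, which lengthens palmitate to stearate, had a log2FC of -1.22 (standard error 0.353, edgeR adjusted p 0.789, exact permutation p 0.0325), from -1.43 to -0.83 when 1 mouse was left out. Its log2 CPM was 5.97, 6.91 and 8.44 on the 10% fat diet and 5.51, 6.02 and 6.83 on the 45% fat diet. Mice 49 and 47 were far above the rest of the 10% fat group, mouse 5 was its lowest, and the groups overlap. In offspring of FED dams Elovl6 had the same log2FC of -1.22 (edgeR adjusted p 0.0291), and the difference between the dam groups was 0.00 (edgeR adjusted p 1.0). Acss2, which activates acetate, had a log2FC of -0.90 (exact permutation p 0.249) and the pentose phosphate enzyme Tkt one of -0.74 (exact permutation p 0.24), with mouse 49 the highest and mouse 5 the lowest of the 12 for each. Without mouse 49 the values were -0.47 and -0.42. The fatty acid desaturase Fads2 had -0.95 (exact permutation p 0.212), but mouse 5 was its highest, and without that mouse the value was -0.22.

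Other genes among those with the smallest p were lower on the 45% fat diet. Rdh12, a retinol dehydrogenase, had a log2FC of -1.09 (standard error 0.275, edgeR adjusted p 0.789, exact permutation p 0.00433). Its log2 CPM was 2.02, 2.84 and 3.32 on the 10% fat diet and 0.92, 1.76 and 2.09 on the 45% fat diet. Mouse 45 was the one mouse on the 45% fat diet that reached the 10% fat group, whose lowest was mouse 48. In offspring of FED dams the value of Rdh12 was -1.13 (edgeR adjusted p 0.0118), and the difference between the dam groups was 0.04 (edgeR adjusted p 0.974). The granule-docking gene Sytl4 had -0.95, with mouse 4 the highest, and -0.30 without mice 4 and 5. The mitochondrial lipid transfer gene Prelid3a had -1.46, the cell adhesion gene Adam23 had -0.40 and the iron carrier Slc11a2 had -0.35, each with an edgeR adjusted p of 0.789. Among the higher ones, the tropomyosin gene Tpm4 had 0.33, the phosphatase gene Dusp10 had 0.84, the adaptor gene Sh2d6 had 1.59 and the RNA export gene Nxf2 had 1.05, the last 2 at a low level in both groups.

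Clock genes keep the daily rhythm of the tissue, so their level in 1 sample depends on the hour of collection, which the labels do not give. Of 19 tested clock genes 14 had a value below 0, 5 were lower and 0 higher at an unadjusted p under 0.05 by edgeR, against 4.49% and 1.53% of all tested genes, and the median was -0.26. Without mouse 5 it was -0.12 with 3 lower, and without mice 4 to 7, a choice made after seeing the data, it was -0.13 with 1 lower and 1 higher. Nr1d1, a heme-binding repressor of the clock, had a log2FC of -0.53 (standard error 0.18, edgeR adjusted p 0.789, exact permutation p 0.0195). Log2 CPM was 7.23, 7.41 and 7.67 on the 10% fat diet and 6.24, 6.78 and 7.62 on the 45% fat diet. Mouse 31 lay within the 10% fat group and the other 5 mice on the 45% fat diet lay below it. In offspring of FED dams Nr1d1 had -0.81 (edgeR adjusted p 0.00658), with a difference between the dam groups of 0.27 (edgeR adjusted p 0.585). The repressors Bhlhe40 and Bhlhe41 had -0.98 and -0.62 (exact permutation p 0.0779 and 0.0974) and the output activator Hlf had -0.54 (exact permutation p 0.0649). Mouse 33 was the highest of its group for the first 2, which had -0.52 and -0.38 without it.

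Adipocytes also signal to other organs by secreted proteins. Sfrp5, which binds Wnt5a, had a log2FC of 0.57 (standard error 0.251, edgeR adjusted p 0.824). Its log2 CPM was 7.82, 8.37 and 8.57 on the 10% fat diet and 8.61, 8.94 and 9.20 on the 45% fat diet. Mouse 5 was far below the rest of its group, and the groups do not overlap. The 10 tested fat expansion genes, which include Sfrp5, all had values above 0, with a median of 0.24, or 0.11 without mouse 5. Of all 15964 tested genes 7091 had a value above 0. Without mouse 5 the list no longer lay wholly above 0, as its gene Trp53inp2 had -0.02. Angptl4, which inhibits lipoprotein lipase, had 0.56, the leptin gene Lep 0.20 and the adiponectin gene Adipoq 0.09, the last 2 with 0.11 and -0.08 without mouse 5. The insulin-regulated phosphodiesterase gene Pde3b had 0.11 and the RNA-binding gene Igf2bp2 had 0.16, each with a 95% interval on both sides of 0. Without mouse 5 Pde3b had 0.01, and without mouse 6 Igf2bp2 had -0.01.

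**Figure D4:**
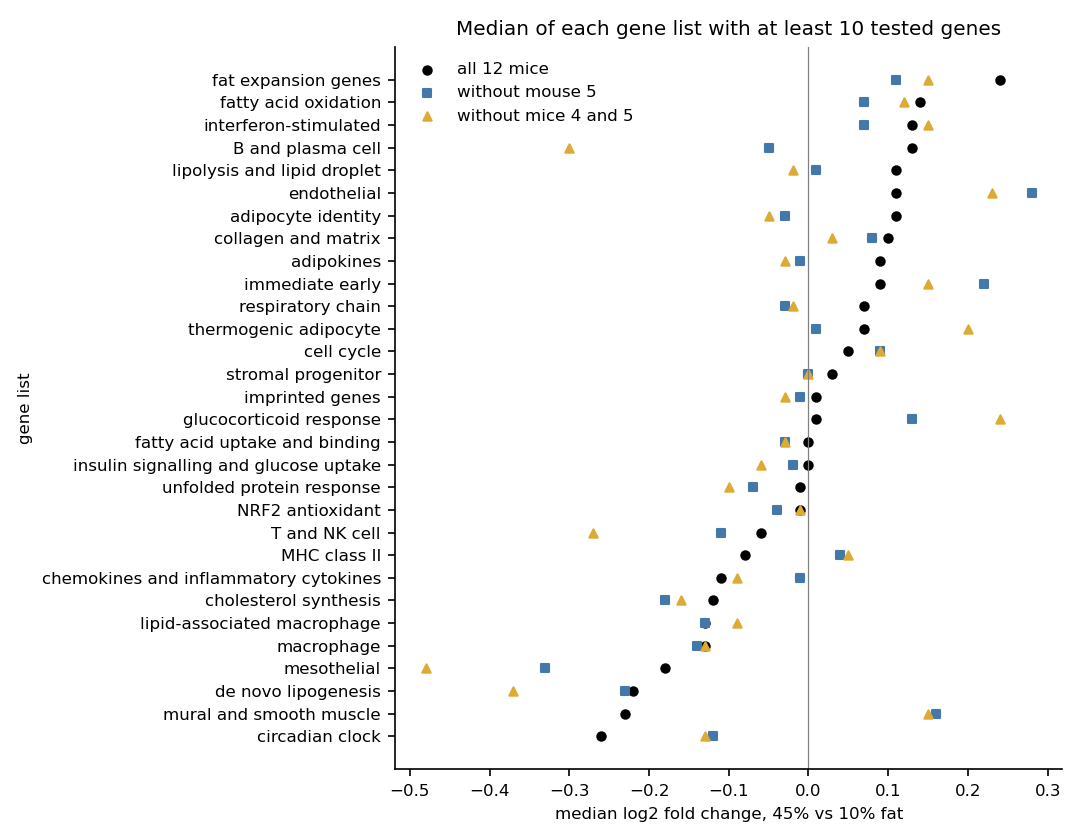
Median log2FC of each gene list with at least 10 tested genes, with all 12 mice, without mouse 5 and without mice 4 and 5.

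Macrophages clear dying adipocytes, and those that load themselves with lipid express lipid-handling genes. The 18 macrophage genes, led by the lysozyme gene Lyz2, summed to 1605.6, 2509.5 and 3350.6 CPM on the 10% fat diet and to 1739.8, 2245.3 and 2850.5 CPM on the 45% fat diet. Mouse 48 was the lowest and mouse 49 the highest of the first group, mouse 31 the lowest and mouse 45 the highest of the second, and the groups overlap. By edgeR 0 of the 18 stood at an unadjusted p under 0.05, beside 6.03% of all tested genes, and their median was -0.13 against 0.72 in offspring of FED dams. The 16 genes of lipid-associated macrophages, led by the lipoprotein lipase gene Lpl, which adipocytes also express, had a median of -0.13 against 1.97 in offspring of FED dams. When 1 mouse was left out, the median of the 18 macrophage genes ran from -0.22 to -0.03. That of the 16 genes ran from -0.20 to -0.04. For the macrophage lysosomal gene Cd68 the 95% interval ran from -0.95 to 0.49, and for the hyaluronan receptor Cd44 from -0.66 to 0.50. The elastase gene Mmp12 had an interval from -2.24 to 0.85 and the interleukin 1 antagonist Il1rn one from -1.08 to 1.57, so that wide ranges of either direction are compatible with the counts. Of 28 tested chemokine and cytokine genes 17 had a value below 0 and 11 above it. At an unadjusted p under 0.05 by edgeR 2 were lower, Ccr2 and Cx3cr1, and 0 higher (all tested genes 4.49% and 1.53%). Their median was -0.11, or -0.01 without mouse 5. The chemokine receptor gene Ccr2, which draws monocytes into tissue, had -0.38, against 0.65 in offspring of FED dams (edgeR adjusted p 0.00827), and the difference was -1.03 (edgeR adjusted p 0.0322). Cx3cr1, the fractalkine receptor, had -1.07 (exact permutation p 0.0216), with mouse 5 the highest, and -0.72 without it.

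Lymphocyte genes were uneven between mice. Those of T and NK cells were low, with median sums of 47.3 CPM on the 10% fat diet and 46.4 CPM on the 45% fat diet. The 16 B and plasma cell genes, led by the IgM gene Ighm, summed to 349.7, 669.5 and 950.3 CPM on the 10% fat diet, with mouse 5 the lowest, and to 548.1, 685.3 and 1094.7 CPM on the 45% fat diet, with mouse 45 the highest, and the groups overlap. The antibody light chain segment Igkv1-110 had a log2FC of 5.54 by edgeR, and mouse 45 reached a log2 CPM of 6.70 while the median of its group was -0.68. Left-out fits gave it 1.08 to 6.26, and the exact permutation p was 0.338. Among 18 tested T and NK cell genes, Foxp3, the regulator of regulatory T cells, was the one lower at an unadjusted p under 0.05 (all tested genes 4.49%), with -1.25 at a low level in all mice. Without mouse 5 it had -1.12 and no longer stood under that p.

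Vessels and matrix frame the adipocytes. The 18 endothelial genes, led by the adhesion gene Pecam1, summed to 676.3, 952.3 and 1671.7 CPM on the 10% fat diet, where mouse 33 was the lowest and mouse 47 the highest, and to 939.5, 1293.3 and 1464.7 CPM on the 45% fat diet, where mouse 6 was the highest. The groups overlap. The tight junction gene Cldn5 had a log2FC of 0.80 (exact permutation p 0.0411), with 4 of 6 mice above all on the 10% fat diet. Of 35 tested collagen and matrix genes 25 had a value above 0 and 10 below it, with a median of 0.10. At an unadjusted p under 0.05 by edgeR 2 were higher and 0 lower (all tested genes 1.53% and 4.49%). These 2, the matricellular genes Thbs1 and Thbs2, had 1.09 and 0.81 (exact permutation p 0.0952 and 0.0519). Mouse 48 was the highest of the 10% fat group for each. Of 26 interferon-stimulated genes 2 were higher at an unadjusted p under 0.05 (all tested genes 1.53%), the mitochondrial gene Ifi27l2a at 0.74 and the virus-tethering gene Bst2 at 0.44. Without mouse 5 neither stood under that p, at 0.60 and 0.37. The 12 mesothelial genes, led by the uroplakin gene Upk3b, summed to 362.8, 448.4 and 1914.6 CPM and to 97.4, 756.5 and 1097.1 CPM, with mouse 49 the highest of all and mouse 6 the lowest. The 12 mural and smooth muscle genes, led by the pericyte gene Rgs5, had a median of -0.23, which was 0.16 without mouse 5.

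Several genes had a value far below 0 that shrank without mouse 5, and for most of them mouse 4 was the next highest of the 10% fat group. The iron-binding lipocalin gene Lcn2 had -2.27, with a log2 CPM of 7.95 in mouse 5 against a median of 2.79 in its group, -0.92 without mouse 5, 1.29 without mice 4 and 5 and -0.10 without mice 4 to 7. The acyl-CoA thioesterase gene Acot1 had -2.42 and the amino acid carrier gene Slc38a4 had -2.96, which were -0.56 and -1.23 without mouse 5, 0.70 and 2.01 without mice 4 and 5, and -0.31 and 0.21 without mice 4 to 7. Mouse 7 was the highest of the 45% fat group for these 3 genes, far above the other 5. The glycerol kinase gene Gk had -1.37 and the growth factor receptor gene Igf1r had -0.63, which were -0.45 and -0.02 without mouse 5. The transcription factor gene Myb and the cilium genes Ccdc65 and Kif27 had -3.53, -2.93 and -2.02. They had -1.74, -1.70 and -0.95 without mouse 5 and kept an unadjusted p under 0.05 in every fit that left out 1 mouse, and they had -0.42, -0.72 and -0.36 without mice 4 and 5. The liver secretory genes Alb, Apoa2 and Pzp and the epithelial genes Epcam and Cldn3, chosen after their values had been seen, were also highest in mouse 5. The epithelial gene Krt7 was instead lowest of the 10% fat group in that mouse. The cause was not tested.

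Liver makes fatty acids for export and draws on the same synthesis genes as fat. In liver of the same 12 mice 52 of 13787 tested genes (0.377%) passed the thresholds by edgeR, 11 upregulated and 41 downregulated, with 24 (without mouse 7) to 69 (without mouse 48) when 1 mouse was left out. Leaving out mouse 47 or mouse 49 gave 29 and 34. The stearoyl-CoA desaturase gene Scd1 fell there by 5.39 (edgeR adjusted p 1.21e-05), and in eWAT it had 0.05 with a 95% interval from -0.52 to 0.62, and -0.08 without mouse 5. The malic enzyme gene Me1, which supplies NADPH, fell in liver by 2.08 and had -0.52 in eWAT, and the lipase gene Pnpla5 fell by 7.08 and had -0.48. The neurotrophin receptor gene Ntrk2 fell in liver by 2.22 and had 0.15 in eWAT. Without mouse 49 the eWAT values of Me1, Pnpla5 and Ntrk2 were -0.17, -0.09 and 0.04. Of the 27 genes that fell in liver and were tested in eWAT, 19 had a value below 0 in eWAT, with medians of -2.08 in liver and -0.17 in eWAT. Elovl6 and Acss2 are among the 5 of them that were lower in eWAT at an unadjusted p under 0.05, beside 4.49% of all genes tested there. Of 12801 genes tested in both tissues, 0 had a tissue difference at an adjusted p of at most 0.055 by the exact permutation test, and 493 (3.85%) had an unadjusted p under 0.05. With 6 mice on each diet that test cannot give a p under 0.00216, so 504 genes at that p would be needed for any to pass, and 26 were there. The 0 therefore says nothing on whether the tissues differ. Of the 35 genes called in liver and tested in both, 29 had an unadjusted exact permutation p under 0.05 for the difference, which was -5.59 for Scd1, but they were picked for their call in liver, which favours a larger value there.

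**Figure D5:**
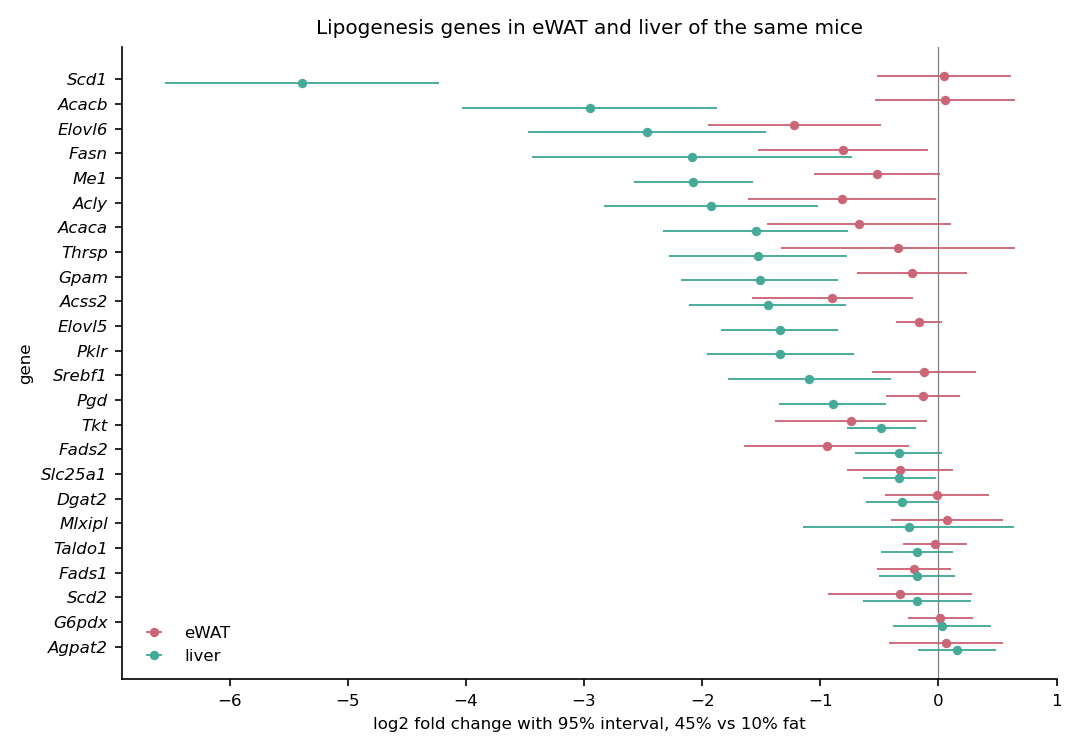
Log2FC with 95% interval of the fatty acid synthesis genes in eWAT and in liver of the same mice. Pklr was not tested in eWAT.

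With 6 mice per diet, no gene of eWAT passed the thresholds by edgeR or limma, and DESeq2 called 1 sparse gene, which does not show that the diets had no effect. Intervals within 1 of 0 were found for 80.7% of genes. The count of lower values changed with mouse 5, with the tool and with the libraries fitted. The median of the fatty acid synthesis genes ran from -0.28 to -0.15 when 1 mouse was left out and that of the clock genes from -0.35 to -0.12, in fits that share most of their mice. The litter, the hour of collection and the meaning of the animal numbers are not given, and their part in the results was not tested. Adipocyte size, cell numbers and protein were not measured in these libraries.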

How the data were processed

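The counts are those that the authors deposited, whole numbers per gene, obtained with FastQC, Trimmomatic, STAR, Subread and the GRCm39 genome, with no tool versions and no strand setting of the counting given. Of 55416 genes 54749 were matched to the GENCODE M39 annotation, another release than the one the methods name. edgeR 4.0.16 in R 4.3.3 was fitted to the 24 eWAT libraries with a mean for each of 4 groups, after filterByExpr and TMM factors. Its p-values are two-sided and adjusted by the Benjamini-Hochberg method over all tested genes. Log2 CPM used a prior count of 2. limma 3.58.1 voom and DESeq2 1.42.0 served as alternatives. The exact permutation test went over all divisions of the 12 mice into 6 and 6 (smallest possible p 0.00216), in Python 3.11.15 with numpy 2.4.6, scipy 1.17.1, pandas 2.3.3 and matplotlib 3.10.9. The p of a tissue difference was adjusted over all genes tested in both tissues. That adjustment was first made over the genes called in liver alone, as the design had it, and most of the 35 compared genes passed. It was replaced after that result had been seen, because those genes were picked for their call.

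Named genes are the 10 higher and the 10 lower ones with the smallest p that have a name, those the study names for this tissue, up to 4 genes of each list at an unadjusted p under 0.05, the most abundant gene of the cell type lists, and genes called in liver. Not every one is described. The members, lists and genes were chosen with earlier results of these data known.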

Additional observations from a re-analysis of the deposited data

Results flagged for a closer look

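Some mice lay so far from the others of their group that the gap to the nearest one took up most of the range of the 6 values. Chance flags about 1 in 20 groups, and many genes were looked at, so some of these arise by chance. Mouse 5, on the 10% fat diet, was set off by its distance from the group median (0.379), its total count of 11589675, and its summed CPM of lipid-associated macrophage genes (10477.8), epithelial genes (255.5) and hepatocyte genes (708.9). It was also set off by its log2 CPM of Nxf2 (-1.99), Slc11a2 (5.58), Adipoq (10.20), Sfrp5 (7.82), Scd1 (14.95), Acads (6.76), Igf1r (6.64), Lpl (12.32), Alb (8.66) and Apoa2 (5.6). Mouse 48, on the same diet, was set off by Tnfaip2 (4.09), by Thbs2 (7.26) and by its skeletal muscle genes, at 64.2 CPM. On the 45% fat diet the log2 CPM of Lcn2 in mouse 7 (5.74), Angptl4 in mouse 32 (8.87), Igf1r (4.33) and Ighm (9.16) in mouse 45, Bst2 in mouse 31 (6.87), Upk3b in mouse 6 (4.12) and Me1 in mouse 46 (8.31) lay apart.

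For other genes the edgeR interaction gave a diet response that differed between offspring of CR20 and FED dams, at an adjusted p of at most 0.055. Over all 15964 tested genes 389 (2.44%) had one. The difference in log2FC was 0.89 for Cited2, -1.80 for Cd44, -2.33 for Cd68, -2.52 for Cd84, -3.40 for Il1rn, -2.93 for Il7r, -1.62 for Tnfaip2, -4.26 for Mmp12 and -1.03 for Ccr2. For the liver secretory genes Apoa2 and Pzp it was -12.81 and -9.25, and mouse 5 was the highest CR20 mouse for both. In offspring of FED dams the log2FC was 6.87 for Apoa2 (edgeR adjusted p 0.0173) and 4.53 for Pzp (edgeR adjusted p 0.0319).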

How the results depend on the processing

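Called genes in eWAT numbered 0 in each alternative fit except DESeq2, which called 1. Higher genes past the relaxed thresholds numbered 152 by DESeq2, 441 with no filter, 50 where a gene had to exceed 1 CPM in 6 or more libraries, and 64 (without mouse 6) to 123 (without mouse 48) when 1 mouse was left out. Lower ones numbered 120 by limma voom with quality weights, 126 by limma voom, 847 by DESeq2, 1535 with no filter, 194 with the 12 libraries compared, and 109 (without mouse 5) to 745 (without mouse 48) when 1 mouse was left out. The 2 further alternatives, without mice 4 and 5 and without mice 4 to 7, were chosen after seeing the data. They gave 182 higher and 138 lower, and 76 higher and 124 lower. Called genes in liver numbered 94 by DESeq2 and 24 (without mouse 7) to 69 (without mouse 48) when 1 mouse was left out.

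Of 851 list medians 847 moved by less than 1 standard deviation between mice, which is wide, and 67 in 24 of 37 lists took the other sign (medians to 2 decimals), among them 7 for B and plasma cells, 4 for mural cells and 3 for adipocytes. The median of the epididymis and testis list, 0.61 over the 3 genes tested in the main fit, was -0.45 with the CPM filter. It was also -0.45 with the 12 libraries compared. That of the nerve and glia list, -0.83, was -0.19 without mice 4 and 5 and -0.10 without mice 4 to 7.

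Of 1864 values of 82 named genes 48 took the other sign. By limma voom with quality weights these were Cd44 0.10, Cd84 0.12, Il7r 0.23, Mmp12 0.07, Pde3b -0.02, Adipoq -0.04, Scd1 -0.07, Lpl -0.06 and Kit 0.02. In the fit with a term for ranges of animal numbers Tnfaip2 had -0.06. Without mice 4 and 5 the values were Pde3b -0.06, Adipoq -0.14, Car3 -0.00, Lcn2 1.29, Scd1 -0.11, Acot1 0.70, Gk 0.27, Igf1r 0.05, Lpl -0.09, Aqp9 0.21, Slc38a4 2.01 and Epcam 0.38. Without mice 4 to 7 they were Cd44 0.04, Il1rn -0.06, Car3 -0.00, Scd1 -0.06, Pank1 0.02, Igf1r 0.05, Lpl -0.10, Kit 0.01, Slc38a4 0.21 and Epcam 0.27. When 1 mouse was left out, values ran from -0.18 to 0.04 for Cd44, -0.39 to 0.47 for Il1rn, -0.09 to 0.11 for Tnfaip2, -0.01 to 0.24 for Igf2bp2, -0.08 to 0.22 for Adipoq, -0.08 to 0.14 for Scd1, -0.27 to 0.04 for Lyz2, -0.10 to 0.06 for Lpl and -0.43 to 0.27 for Upk3b. Cited2 had an adjusted p of 0.0434 by DESeq2. The cause was not tested. In the shallowest library, that of mouse 5, a gene with 3 counts stands at 0.259 CPM, so genes below that level are poorly measured.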
